A study of Mus musculus with 4 samples.

Results

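The Hox genes studied here are the 39 protein-coding genes of the mouse Hoxa, Hoxb, Hoxc and Hoxd clusters, chosen by symbol from the 21883 protein-coding genes of the RefSeq annotation of GRCm38.p6. Hoxa holds 11 of them (chr6:52155367-52260880), Hoxb 10 (chr11:96194316-96368254), Hoxc 9 (chr15:102921131-103036856) and Hoxd 9 (chr2:74668225-74765142), each cluster being taken from the first to the last base of its Hox genes. The data are lists of peaks from chromatin immunoprecipitation and sequencing (ChIP-seq) with an antibody against STAT3, a transcription factor that interleukin-6 and related cytokines switch on. C57BL/6 mice with a spinal cord injury (SCI) had a moderate contusion of 60 kdyn added to a laminectomy at thoracic level 9, while sham mice had that laminectomy alone, and both were studied at 7 days. Cells were dissociated from the epicentre, each library came from the pooled tissue of 3 mice, and no step that enriches 1 cell type is described, so a peak cannot be assigned to a cell type. Each condition had 1 STAT3 library, so no difference between SCI and sham given here has a replicate check, and the labels do not state the age of the mice. A peak list holds no expression values, so the labelled tissue was not checked against its marker genes.

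Hox genes encode homeodomain transcription factors that give cells their position along the head-to-tail axis. Their order along each cluster follows their order along the body: genes with low paralogue numbers act from the hindbrain backwards, and those with high numbers act towards the tail, the same number in different clusters marking genes of common descent. In the spinal cord they set the identity of motor neuron columns, with Hoxc6 active at forelimb levels, Hoxc9 at thoracic levels and the Hox10 genes at lumbar levels. Polycomb complexes hold silent Hox genes repressed, Trithorax and MLL complexes keep active ones open, and retinoic acid, fibroblast growth factors, Gdf11 and Cdx factors set the pattern in the embryo.

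Besides the Hox genes, the clusters hold microRNAs that repress Hox transcripts. The miR-196 and miR-10 families are shown because 3 of their 5 genes had a peak of at least 1 list within 5 kb; capitals mark the seed, bases 2 to 8, which pairs with target transcripts. Sequences are from RefSeq, GRCm38.p6, written 5′ to 3′.
mmu-miR-196a-5p: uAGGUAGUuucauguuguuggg
mmu-miR-196b-5p: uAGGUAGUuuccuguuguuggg
mmu-miR-10a-5p: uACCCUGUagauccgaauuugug
mmu-miR-10b-5p: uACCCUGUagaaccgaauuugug
The miR-196 members share the seed AGGUAGU and the miR-10 members the seed ACCCUGU. The miR-196a sequence is made by both Mir196a-1 (chr11:96265187-96265208, plus strand) and Mir196a-2 (chr15:102973365-102973386, plus strand), and miR-196b by Mir196b (chr6:52230129-52230150, minus strand). Those of miR-10a and miR-10b lie at chr11:96317186-96317208 and chr2:74726074-74726096, both on the plus strand.

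The promoters of 2 Hox genes are shown as well, from 250 bases before the listed start of the gene up to the base before it. Hoxd4 (chr2:74721728-74721977, plus strand) holds the letters TTCNNNGAA, the core of the DNA element that STAT factors bind, in capitals; the element reads the same on both strands. Hoxa3 (chr6:52213068-52213317, minus strand) is the listed Hox promoter closest to a peak and does not hold these letters.
Hoxd4: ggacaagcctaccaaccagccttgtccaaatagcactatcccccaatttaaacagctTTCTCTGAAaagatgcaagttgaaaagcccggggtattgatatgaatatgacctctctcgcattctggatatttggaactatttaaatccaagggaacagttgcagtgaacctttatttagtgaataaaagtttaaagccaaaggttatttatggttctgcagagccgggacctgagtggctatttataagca
Hoxa3: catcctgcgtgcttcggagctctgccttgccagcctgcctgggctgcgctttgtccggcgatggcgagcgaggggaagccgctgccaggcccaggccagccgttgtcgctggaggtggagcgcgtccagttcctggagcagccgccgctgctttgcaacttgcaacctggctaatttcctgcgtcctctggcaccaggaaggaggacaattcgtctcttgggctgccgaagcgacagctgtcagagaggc
The promoter table listed 24 start windows of 300 bases (250 before and 50 after a start) for 22 of the 39 Hox genes. No SCI peak and no sham peak overlapped any of the 24, and over all 32851 listed windows the share with an overlap was 0.682% in SCI and 1.69% in sham. The smallest distance was at Hoxa3, where the SCI peak at chr6:52213551-52213714 began 233 bp beyond the window. The letters TTCNNNGAA stood in 1 of the 24 Hox windows, 4.17%, and in 8.3% of all windows. In Hoxd4 they read TTCTCTGAA, starting 193 bases before the start, and the nearest peak to that start was 34923.5 bp away in SCI and 34858.5 bp in sham. The sequence under the peaks was not read.

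The lists differed in length, which bears on every count. On chromosomes 1 to 19, X and Y the SCI list had 36249 peaks and the sham list 88765, a ratio of 0.408, so SCI peaks made up 29.0% of both lists together. The score, the authors' own value for a peak, had a median of 7.37 in SCI and 8.07 in sham and is used only to place a peak within its own list, since it is not known whether a score means the same in both. Nearly all peaks had 1 width, 164 bp in SCI and 190 bp in sham, and all 31 peaks inside the clusters had it.

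Inside the 4 Hox clusters there were 11 SCI peaks and 20 sham peaks, counted by their centres. Even placement along each chromosome would have put 7.38 SCI and 17.7 sham peaks there. The ratio of observed to expected was 1.49 in SCI (95% exact Poisson interval 0.744 to 2.67) and 1.13 in sham (0.692 to 1.75), and both intervals include 1. The intervals cover counting error only, and the same holds for every interval below. SCI peaks made up 35.5% of the 31 peaks inside the clusters (exact binomial interval 19.2 to 54.6%) and 29.0% of all peaks, so the clusters could not be told apart from the whole lists in this respect. With the sham list cut to its 36249 highest-scoring peaks, the length of the SCI list, the clusters held 11 SCI and 7 sham peaks, the sham ones being 0 in Hoxa, 3 in Hoxb, 3 in Hoxc and 1 in Hoxd. The ratios of observed to expected were then 1.49 in SCI, with the interval given above, and 0.949 in sham, and the difference was not tested. The plot of density shows that at none of the clusters did the interval inside exclude the mean of its chromosome.

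**Figure D1:**
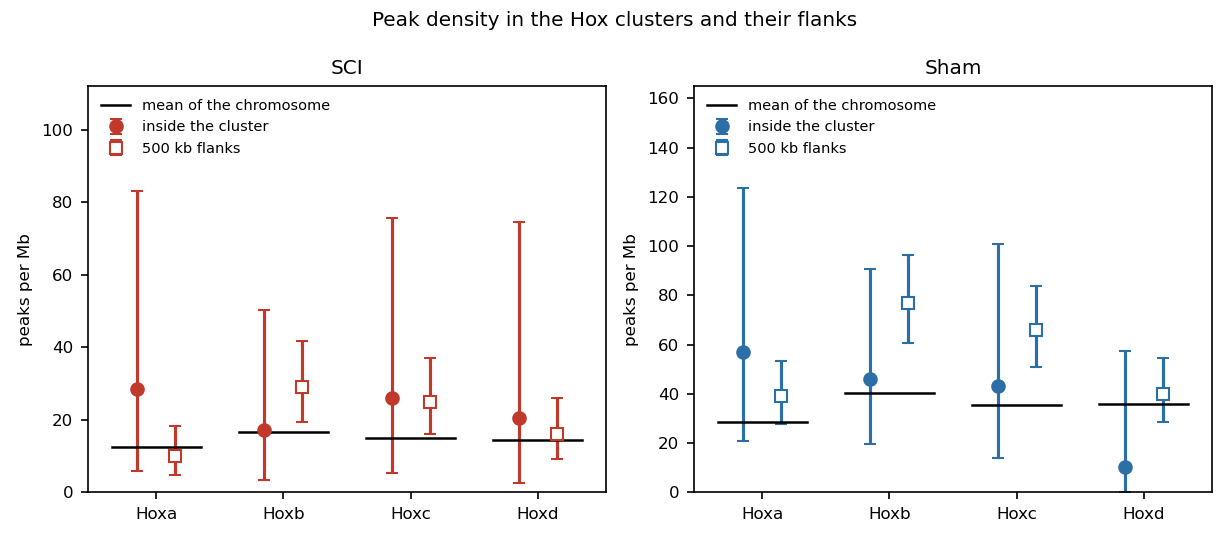
Peaks per Mb inside each Hox cluster (filled circles) and in its 500 kb flanks (open squares), SCI left and sham right, with 95% exact Poisson intervals (bars) and the mean of the chromosome (black line). The scales of the panels differ; sham peaks in Hoxd lie at 10.3 per Mb against a chromosome mean of 36.0, and the flanks of Hoxb and Hoxc lie above their chromosome means in both lists.

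With all listed peaks Hoxa had the highest density of the clusters in both lists, with 3 SCI peaks where 1.33 were expected and 6 sham peaks where 3.03 were expected, 28.4 and 56.9 per Mb. Of 22755 autosomal windows of the same length, 19.8% held as many SCI peaks or more and 19.3% as many sham peaks or more. Among the 110 windows with at least 9 protein-coding genes, the shares were 40.0% in SCI and 49.1% in sham, so other gene-dense stretches often held as many. With scores at or above the median of each list, Hoxa kept 1 SCI and 0 sham peaks, and at equal list lengths 3 SCI and 0 sham peaks. No SCI peak of Hoxa overlapped a sham peak.

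The SCI peaks of Hoxa lay in the middle of the cluster, between Hoxa4 and Hoxa7, where no sham peak lay. One, at chr6:52201895-52202058 with a score of 11.4 (top 19.5% of the SCI list), and a second at chr6:52202186-52202349 (5.56, top 82.2%), lay inside Hoxa5, a gene needed for lung and brachial development, and inside the noncoding gene Hoxaas3. The listed span of Hoxa3, a gene of the hindbrain and pharyngeal arches, is 44009 bp long and encloses Hoxa4, Hoxa5 and Hoxa6, so the same 2 peaks also count for Hoxa3. The third, at chr6:52213551-52213714 (6.74, top 60.2%), lay 565.5 bp beyond Hoxa3 and 1990.5 bp from Hoxa7. Hoxa6 had these 3 peaks within 5 kb and none inside. A further SCI peak just outside the cluster, at chr6:52264272-52264435 (8.33, top 38.9%), lay 3473.5 bp beyond Hoxa13, a gene of digits and the urogenital tract, and inside Hottip, a noncoding RNA gene known for activating the neighbouring 5′ Hoxa genes.

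The sham peaks of Hoxa lay on either side of those SCI peaks, and all 6 had low scores. They scored between 5.16 and 7.18, and none ranked above the top 59.5% of the sham list. Hoxa3 held 2 of them, at chr6:52169938-52170127 and chr6:52185433-52185622, the second 4154.5 bp from Hoxa4. The other 4 lay among the posterior genes: 466.5 bp before Hoxa9 (chr6:52222536-52222725), inside Hoxa9 (chr6:52224645-52224834), inside Hoxa10 (chr6:52231629-52231818) and inside Hoxa11 (chr6:52244669-52244858). Hoxa9 is a regulator of blood progenitors, while Hoxa10 and Hoxa11 pattern limbs and the reproductive tract. None of the 6 was among the sham peaks left at equal list lengths.

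**Figure D2:**
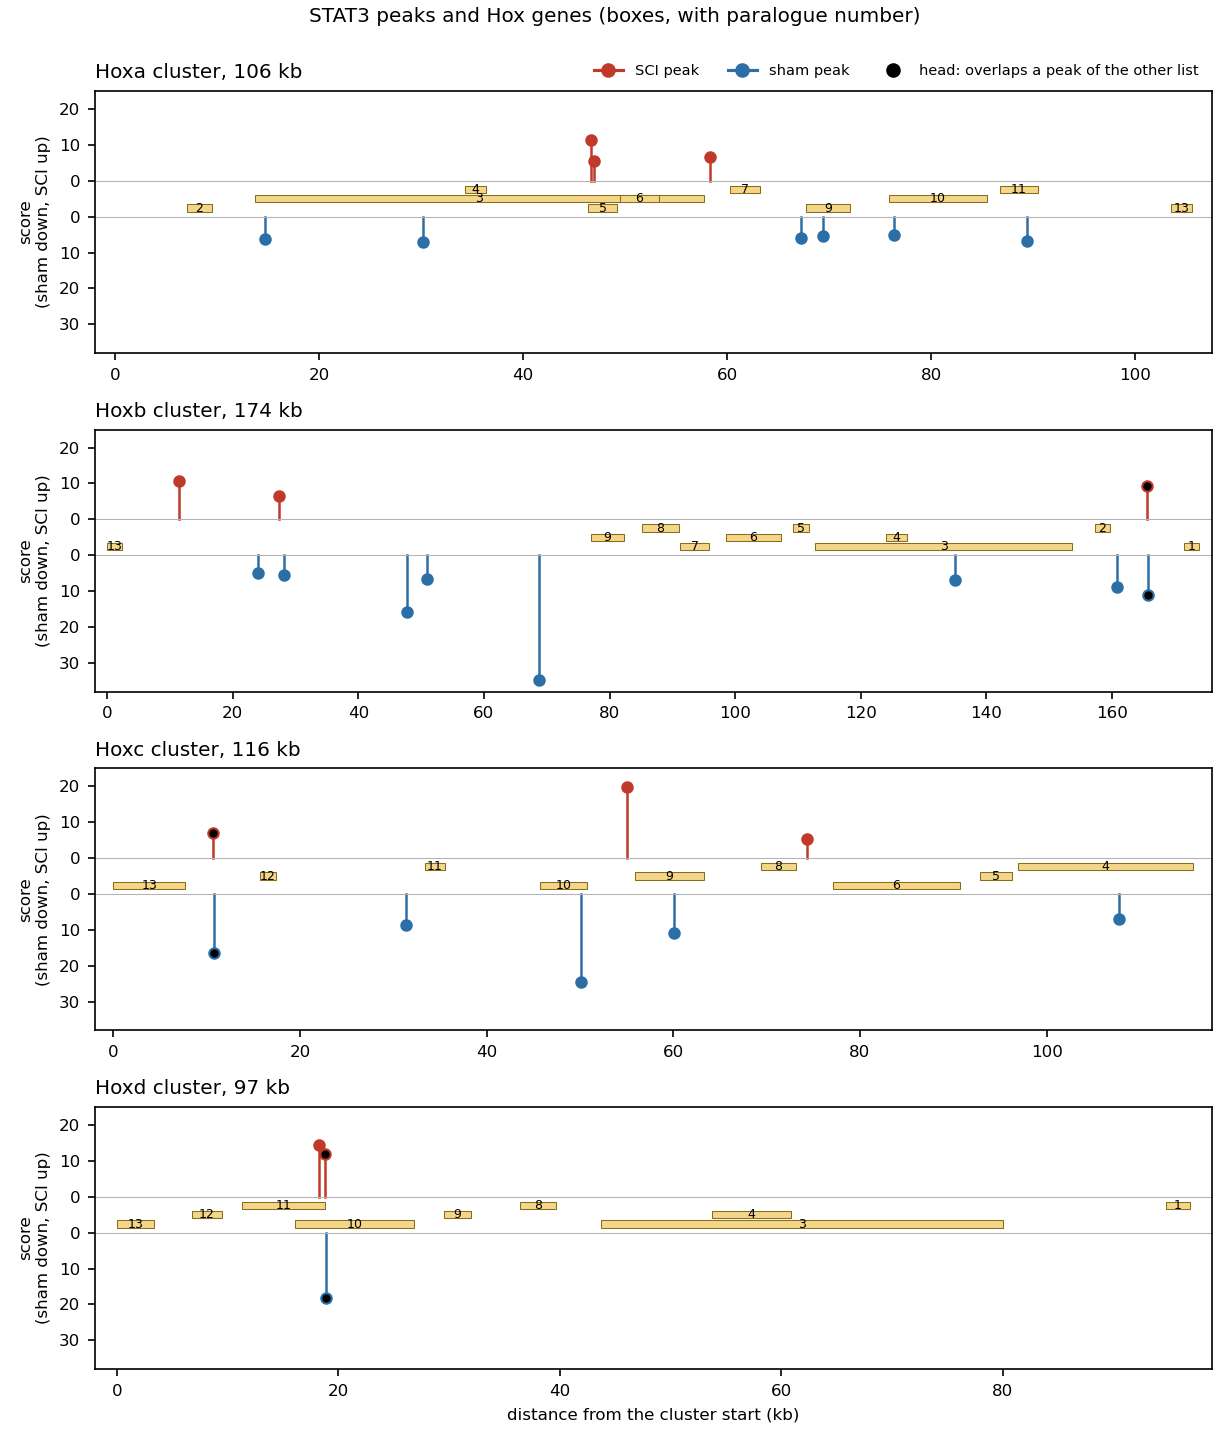
Peaks along the 4 clusters: distance from the cluster's lowest coordinate in kb (horizontal) and the authors' score (vertical), SCI upwards and sham downwards, over boxes for the Hox genes shown, with their paralogue numbers. Black heads mark the 3 positions present in both lists, at Hoxb2 and Hoxb1, Hoxc13 and Hoxc12, and Hoxd10.

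Hoxb, the longest cluster at 173.9 kb, had 3 SCI and 8 sham peaks, against 2.91 and 7.01 expected. As many or more were found in 43.1% of 13799 windows of its length in SCI and in 27.8% in sham, and in 63.3 and 56.9% of the 469 with at least 8 protein-coding genes. Only 43.2% of its length lies within a Hox gene, against 69.8% of Hoxa, because a wide stretch separates Hoxb13 from Hoxb9. Of its peaks, 2 in SCI and 5 in sham lay in that stretch. The SCI peaks there, at chr11:96205588-96205751 (10.7, top 22.5%) and chr11:96221570-96221733 (6.56, top 63.0%), lay 9059.5 and 25041.5 bp from Hoxb13, a gene of the tail and prostate. A sham peak had its centre 842 bp from the second of them, at chr11:96222399-96222588, with no overlap.

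The highest-scoring sham peak of the clusters lay in this stretch. It lay at chr11:96262921-96263110, scored 34.6 (top 1.63% of the sham list) and sat inside the noncoding gene Gm53, 2148.5 bp from the microRNA gene Mir196a-1 and 8314.5 bp from Hoxb9. The nearest SCI peak to it was 41364 bp away. Sham also had peaks at chr11:96241976-96242165 (15.8, top 15.2%), chr11:96245111-96245300 (6.72) and chr11:96218218-96218407 (5), and the SCI peak nearest to any of these was 3339 bp away.

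No gene of Hoxb had an SCI peak within 5 kb. The nearest was 5779.5 bp from Hoxb1 and 5946.5 bp from Hoxb2, at chr11:96359885-96360048 (9.27, top 30.9%), and it was also the only Hoxb position in both lists: the sham peak at chr11:96359894-96360083 (11.1, top 29.6%) had its centre 22 bp away. Hoxb1 and Hoxb2 specify hindbrain segments. In sham, 3 genes had a peak within 5 kb: Hoxb3 held one at chr11:96329293-96329482 (6.79), Hoxb2 had one 1078.5 bp away at chr11:96355004-96355193 (8.80), and Hoxb1 had one 2018.5 bp away, outside the cluster, at chr11:96370178-96370367 (8.18).

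From Hoxb9 to Hoxb4, the central genes of the cluster, neither list had a peak. This stretch of 66.4 kb between neighbouring centres contains Hoxb9, Hoxb8, Hoxb7, Hoxb6, Hoxb5 and Hoxb4, of which Hoxb8 is known for its part in spinal sensory circuits and in a lineage of microglia. Of all gaps between neighbouring peaks of both lists together, whose median was 12.5 kb, 4.97% were as long, and such gaps took up 23.3% of the autosomal span. The stretch was picked as the longest inside Hoxb. In SCI alone the gap ran over 138.3 kb and 8 Hox genes. Of SCI gaps, 13.9% were as long, and they took up 44.0% of the autosomal span. Hoxb7 had the most distant SCI peak of any Hox gene, 63952.5 bp away, and its nearest sham peak was at 22588.5 bp.

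Hoxc had 3 SCI and 5 sham peaks, against 1.74 and 4.13 expected, and it held the highest SCI peak of any Hox cluster. As many or more were found in 23.4% of 20746 windows of the same length in SCI and in 36.7% in sham, and in 42.9 and 70.4% of the 240 with at least 8 protein-coding genes. That peak, at chr15:102976092-102976255 (19.8, top 3.69%), lay between Hoxc10, 4275.5 bp away, and Hoxc9, 858.5 bp away. Hoxc9 sets thoracic motor neuron identity and Hoxc10 acts at lumbar levels. Neither gene held an SCI peak within its span. Sham had a peak inside each: one in Hoxc10 at chr15:102971105-102971294 (24.4, top 5.22%), its centre 4974 bp from the SCI peak, and one in Hoxc9 at chr15:102981148-102981337 (10.9, top 30.6%).

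At the posterior end of Hoxc both lists had the same positions. Between Hoxc13 and Hoxc12 the SCI peak at chr15:102931749-102931912 (6.89, top 56.4%) and the sham peak at chr15:102931789-102931978 (16.5, top 13.8%) had centres 53 bp apart. Outside the cluster, the SCI peak at chr15:102916398-102916561 (8.82, top 33.4%) overlapped the sham peak at chr15:102916392-102916581 (8.02, top 50.2%), 4651.5 and 4644.5 bp from Hoxc13, a gene of hair and nails. Hoxc12 only just counted as having a peak, at 4995.5 bp in SCI and 4942.5 bp in sham, and Hoxa2 only just did not, at 5201.5 bp in sham. In the anterior portion of Hoxc, the SCI peak at chr15:102995406-102995569 (5.32, top 84.0%) lay 1212.5 bp from Hoxc8 and 2738.5 bp from Hoxc6, which act at brachial levels, and the nearest sham peak was 14245 bp away. Sham peaks lay 1988.5 bp from Hoxc11 (chr15:102952443-102952632; 8.54), inside Hoxc4 (chr15:103028753-103028942; 7) and 844.5 bp beyond Hoxc4 (chr15:103037606-103037795; 9.37). Hoxc5, with its nearest peaks at 18520.5 bp in SCI and 11418.5 bp in sham, was the only Hoxc gene with none within 5 kb.

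Hoxd was the only cluster with more SCI than sham peaks, 2 against 1, where 1.40 and 3.49 were expected. The counts are too small to separate the lists: SCI peaks made up 66.7% of the 3, with an interval from 9.43 to 99.2%. Of 24775 windows of its length, 39.1% held as many SCI peaks or more and 19.5% held 1 sham peak or none. Among the 157 windows with at least 8 protein-coding genes, 57.3% held as many SCI peaks or more, and 8 windows or 5.10% had 1 sham peak or none. The mean of the 157 windows was 5.54 sham peaks.

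All 3 peaks of Hoxd fell within 1 stretch at Hoxd11 and Hoxd10, genes that pattern limbs and lumbar motor neurons. The SCI peak at chr2:74686379-74686542 (14.5, top 10.2%) lay inside both genes, whose listed spans overlap, and the SCI peak at chr2:74686973-74687136 (11.9, top 17.2%) lay inside Hoxd10 and 38.5 bp beyond Hoxd11. The sham peak at chr2:74687025-74687214 (18.2, top 11.1%) overlapped the second, their centres being 65 bp apart. These were the only SCI peaks inside Hox genes besides those in Hoxa5 and Hoxa3. From Hoxd10 past Hoxd1 there followed a stretch of 94.9 kb with no peak of either list, of which 78.0 kb lay in the cluster with Hoxd9, Hoxd8, Hoxd3, Hoxd4 and Hoxd1. Of gaps in both lists together, 1.71% were as long, and they took up 10.8% of the autosomal span. This stretch, too, was picked as the longest inside its cluster. For the stretches picked in the same way in Hoxa (16.4 kb) and Hoxc (33.4 kb), 41.5 and 19.5% of gaps were as long. Hoxd13 and Hoxd12, the most posterior genes, had no peak within 5 kb, their nearest SCI peaks being at 14857.5 and 8755.5 bp and their nearest sham peaks at 11721.5 and 9414.5 bp.

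**Figure D3:**
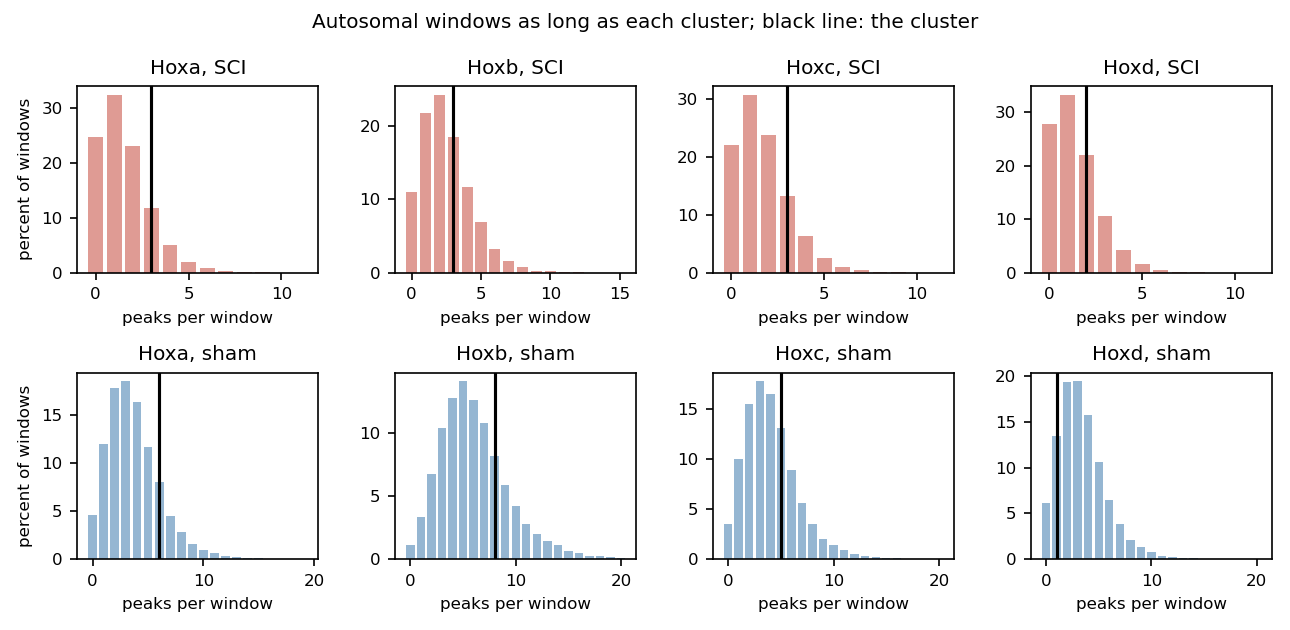
Percent of autosomal windows as long as each cluster (vertical) by the number of peaks they hold (horizontal), SCI above and sham below; the black line marks the cluster, and windows with over 20 peaks are not drawn. The line lies within the bulk of the bars in 7 of the 8 panels, and for sham in Hoxd it lies at the low side, where 93.9% of windows held as many or more.

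Counted by gene, 13 of 39 Hox genes (33.3%) had an SCI peak inside or within 5 kb and 18 (46.2%) had a sham peak. Of all protein-coding genes, 43.9% had an SCI peak and 66.7% a sham peak. Hox genes are short, with a median length of 3737 bp, and short genes have peaks less often: genes of the same length deciles had an SCI peak in 25.4% of cases and a sham peak in 48.4%. Length-matched genes would thus give 9.92 Hox genes with an SCI peak, where 13 were found, and 18.9 with a sham peak, where 18 were found. The sham count lay near its background. With 1 library per condition none of this was tested. Of the 39 Hox genes, 4 had an SCI peak and 9 a sham peak inside their span, beside 33.4% and 51% of all protein-coding genes. No length-matched share was computed for peaks inside genes, so no difference can be read from these counts. Neighbouring Hox genes lie close together, so 1 peak can count for several: the 13 genes drew on 10 different SCI peaks, and the 18 genes on 18 different sham peaks. At equal list lengths 13 Hox genes had an SCI peak and 7 (17.9%) a sham peak, where the cut sham list reached 44.9% of all protein-coding genes and 26.8% of length-matched ones.

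By list, 8 Hox genes had a peak in both, 20.5%, where all protein-coding genes gave 37.3% and length-matched ones 17.0%. They were Hoxa3, Hoxa7, Hoxc9, Hoxc10, Hoxc12, Hoxc13, Hoxd10 and Hoxd11. Another 5 had a peak in SCI alone (12.8%, beside 6.51% of all and 8.39% of length-matched genes): Hoxa5, Hoxa6, Hoxa13, Hoxc6 and Hoxc8. A peak in sham alone was found for 10 (25.6%, beside 29.3% and 31.3%), among them Hoxa4, Hoxa9, Hoxa10, Hoxa11, Hoxb1, Hoxb2, Hoxb3, Hoxc4 and Hoxc11. The remaining 16 (41.0%, beside 26.8% and 43.3%) had none, 7 of them in Hoxb and 7 in Hoxd. The genes with a peak in SCI alone do not count independently: Hoxa5 and Hoxa6 share peaks, and 1 peak serves both Hoxc6 and Hoxc8.

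With all listed peaks, the counts by paralogue number were as follows. Among the anterior groups 1 to 3, 1 of 8 genes had an SCI peak, Hoxa3, and 5 had a sham peak. In groups 4 to 8 the SCI list reached 5 of 15 genes and the sham list 3, although the sham list was longer. In groups 9 to 13 it was 7 of 16 in SCI and 10 in sham. From groups 1 to 3 over 4 to 8 to 9 to 13, the share with an SCI peak was 12.5, 33.3 and 43.8%, beside 34.4, 23.2 and 23.1% of length-matched genes. The share with a sham peak was 62.5, 20 and 62.5%, beside 58.2, 45.6 and 46.0%. At equal list lengths the SCI counts stay as given, and the sham counts become 0 of 8, 1 of 15 and 6 of 16 (0, 6.67 and 37.5%, beside 35.6, 24.3 and 24.7% of length-matched genes). Neighbouring genes share peaks, so these counts are not independent and the pattern was not tested.

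**Figure D4:**
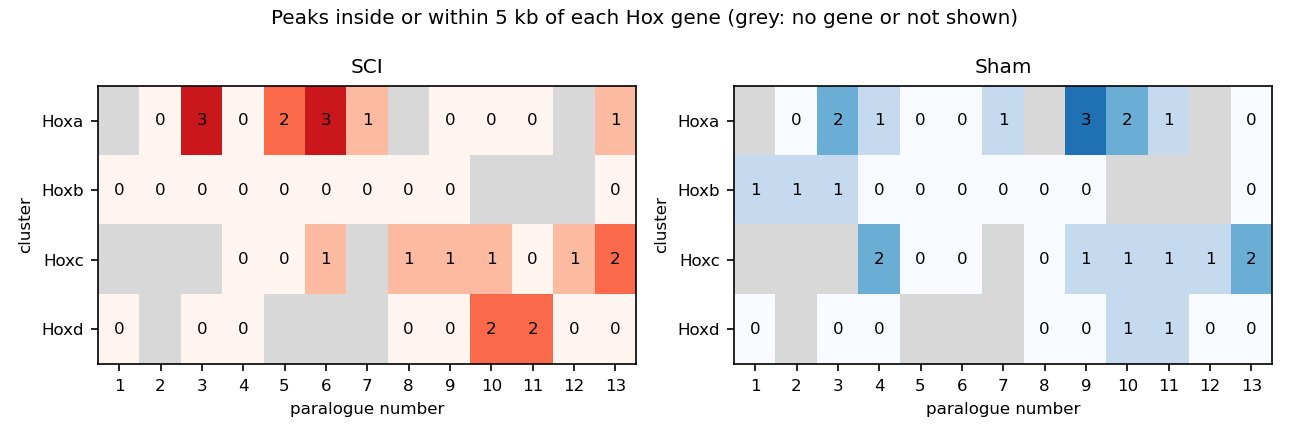
Number of peaks inside or within 5 kb of each Hox gene, by cluster (rows) and paralogue number (columns), SCI left and sham right; grey marks places with no gene or none shown. Hoxb has 0 in every SCI cell, and the genes of groups 5, 6 and 8 have 0 in every sham cell.

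Counts by single paralogue number come from the same genes and have no test. With 2 to 4 genes in a group they are too small to read a difference from. Groups 10 and 11 had a sham peak at all 3 of their genes each, and an SCI peak at 2 and at 1. Length-matched shares were 53.6 and 45.0% in sham and 27.6 and 22.4% in SCI. At equal list lengths Hoxa10, Hoxa11 and Hoxc11 no longer had a sham peak, and the sham counts were 2 and 1, those of the SCI list. Groups 5, 6 and 8 had no gene with a sham peak, and SCI peaks at 1, 2 and 1 of 3 genes. Their length-matched shares were 38.9, 54.4 and 41.4% in sham and 18.8, 28.4 and 20.4% in SCI. No gene of groups 2 and 4 had an SCI peak, beside 18.8 and 25.6% of length-matched genes. Sham peaks were found at 1 of 2 and 2 of 4, beside 38.9 and 48.7%. The group 13 genes, which end the body axis, had an SCI peak at Hoxa13 and Hoxc13 and a sham peak at Hoxc13. Of length-matched genes, 21.5% had an SCI peak and 43.5% a sham peak.

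Of the peaks inside the clusters, 3 of the 11 SCI peaks (27.3%, exact binomial interval 6.02 to 61.0%) overlapped a sham peak by at least 1 bp, and 3 of the 20 sham peaks (15.0%, 3.21 to 37.9%) overlapped an SCI peak. The shares over all peaks, 21.6% in SCI and 8.84% in sham, lay within these intervals. In 2 further pairs the centres lay within 1000 bp without overlap, at Hoxb (842 bp) and Hoxd (659 bp), the second SCI peak of that Hoxd stretch overlapping the same sham peak. The median score inside the clusters was 9.27 in SCI and 7.09 in sham. In the top 10% of its own list stood 1 SCI peak, near Hoxc9, and 2 sham peaks, in Gm53 and in Hoxc10.

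Within 5 kb, 1 of the 6 miRNA genes of the clusters had an SCI peak and 3 a sham peak. Of 1228 miRNA genes, 15.6% had an SCI peak and 31.3% a sham peak. With 6 genes, both counts are too small to read a difference from. Of the 6, the genes with a peak were all of the miR-196 family. Mir196a-2, between Hoxc10 and Hoxc9, had an SCI peak 2739.5 bp away (19.8) and a sham peak 2150.5 bp away (24.4). Mir196a-1 and Mir196b had their nearest SCI peaks at 43512.5 and 16448.5 bp, and sham peaks at 2148.5 and 1558.5 bp (34.6 and 5.16). Mir10a and Mir10b had SCI peaks no nearer than 42692.5 and 39015.5 bp, and sham peaks no nearer than 12113.5 and 38950.5 bp. Mir615, in Hoxc5, had its nearest peaks at 19422.5 bp in SCI and 13846.5 bp in sham.

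Long noncoding genes of the clusters were counted by the peaks inside them. Of the 24 counted, 1 held an SCI peak, Hoxaas3, and 3 held a sham peak, LOC115490409, Gm52902 and Gm53. The noncoding genes Gm30528, which runs past the end of Hoxc, and Hottip are not among the 24. Gm30528 held the sham peak inside Hoxc4 and the one just beyond Hoxc4, and Hottip held the SCI peak beyond Hoxa13. The shares of the 24 were 4.17% in SCI and 12.5% in sham, beside 18.8% and 34.1% of 12727 lncRNA genes, whose median length of 8429 bp exceeded the 4048 bp of those in the clusters. No length-matched share was computed here, so no difference can be read from these counts. Hotair, the lncRNA of Hoxc that binds Polycomb complexes, and Haglr of Hoxd held no peak of either list.

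The 500 kb flanks of the clusters held 80 SCI and 222 sham peaks, against 58.8 and 140.6 expected. The ratios were 1.36 (exact Poisson interval 1.08 to 1.69) in SCI and 1.58 (1.38 to 1.80) in sham, and both intervals lie above 1. In SCI the clusters held 22.4 peaks per Mb and their flanks 20, and in sham the clusters held 40.6 and their flanks 55.5. The clusters made up 10.95% of the length of clusters and flanks together and held 12.1% of the SCI peaks (6.19 to 20.6%) and 8.26% of the sham peaks (5.12 to 12.5%). Both intervals include the share of length. Of the flank peaks, 27 of 80 in SCI (33.8%, 23.6 to 45.2%) and 27 of 222 in sham (12.2%, 8.17 to 17.2%) overlapped a peak of the other list.

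Against even placement along the chromosome, the dense flanks were those of Hoxb and Hoxc. Around Hoxb the flanks had 1.73 times the expected number in SCI and 1.91 times in sham, and around Hoxc 1.66 and 1.85 times. Around Hoxa it was 0.795 times in SCI and 1.36 times in sham, and around Hoxd 1.10 and 1.11 times. The flank next to Hoxb13 had 19 SCI and 47 sham peaks, 2.27 and 2.33 times the expected number. Of 4793 autosomal windows of that length, 0.459% had as many SCI peaks or more and 0.209% as many sham peaks or more. That flank holds 12 protein-coding genes, and among the 677 windows with at least 10 the shares were 1.77 and 1.18%, a comparison added after the values were seen. For the flank next to Hoxb1, 34.0% of gene-dense windows held as many SCI peaks or more and 13.7% as many sham peaks or more. For the flank next to Hoxc13 these shares were 24.9 and 9.96%, and for that next to Hoxc4 21.2 and 27.3%. Such counts were thus not rare among gene-dense stretches. The flank of Hoxa on the side of Skap2, by contrast, held 2 SCI and 19 sham peaks around that single protein-coding gene, and 5.74% of windows had 2 SCI peaks or fewer.

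The highest peak of each list was placed in each flank. In the flank next to Hoxb1, Skap1, which encodes an adaptor protein of T cells and spans 295053 bp, held the highest SCI peak (chr11:96563664-96563827; 31.4, top 0.610%) and the highest sham peak (chr11:96587990-96588179; 43.3, top 0.665%). Next to Hoxb13 the highest SCI peak lay in Calcoco2, an autophagy receptor gene (chr11:96109610-96109773; 18.5, in both lists), and the highest sham peak in the noncoding gene Gm38959 (chr11:95855708-95855897; 45.3, top 0.560%). Next to Hoxa13, the highest SCI peak (chr6:52308138-52308301; 14.7) lay 169.5 bp from Evx1os, antisense to the homeobox gene Evx1 that marks spinal V0 interneurons. The highest sham peak there (chr6:52322423-52322480; 31.4) lay 4062.5 bp from Evx1, on another position. In the other flank of Hoxa the highest peaks were an SCI peak in Skap2 (7, top 52.7%) and a sham peak outside any gene (31.2, top 2.38%).

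Around Hoxc and Hoxd the highest flank peaks scored as follows. Next to Hoxc13 the SCI peak scored 12.8, 1029.5 bp from Pcbp2, and the sham peak 40.9, 9612.5 bp from Atp5g2. Next to Hoxc4 the SCI peak lay in Cbx5 (9.29, in both lists), which encodes a heterochromatin protein, and the sham peak 2221.5 bp from Smug1 (31.1). Next to Hoxd13 the SCI peak lay in the noncoding gene Gm39852 (19.9) and the sham peak 11788.5 bp from Lnpk (22.2). Next to Hoxd1 the SCI peak lay 5525.5 bp from Mtx2 (23.2, top 2.04%) and the sham peak 118169.5 bp from it (29.7).

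Genes that act with, on or upstream of the Hox genes are given beside genes matched on length, since long genes have peaks more often. Of the 9 TALE cofactors (Pbx, Meis and Pknox homeodomain partners of Hox proteins), 7 had an SCI peak and 6 a sham peak, 77.8 and 66.7%, beside 71.3 and 87.2% of length-matched genes. Pknox1 (11.4) and Meis3 (15.8) had a peak in SCI alone, 2 of 9 genes or 22.2%, beside 3.53% of length-matched genes, a count too small to read a difference from. High SCI peaks lay in Meis1 (17.6, top 5.58%, in both lists) and Meis3, and high sham peaks in Meis2 (24.9) and Pbx4 (21.4).

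The Polycomb list of 29 genes had 17 with an SCI peak and 24 with a sham peak, 58.6 and 82.8%, beside 51.1 and 75.4% matched on length. A peak in SCI alone was found at 0 of the 29, beside 6.08% of length-matched genes. Kdm2b, which recruits a Polycomb complex to CpG islands, had 4 SCI and 8 sham peaks inside or within 5 kb, the highest in SCI scoring 25.6 (top 1.39%). Rbbp4, a histone-binding subunit, had 3 SCI and 5 sham peaks, and the highest of each list were at the same position (25.3 and 35.5). Jarid2 had 3 SCI peaks, the highest at 17.7, and 12 sham peaks, counted in the same way. The highest sham peaks after that of Rbbp4 were in Phc3 (32.9) and in Rnf2 (30.2), the ubiquitin ligase of the complex, which had none in SCI. Bmi1, Ring1, Phf1 and Pcgf6 had no peak of either list.

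The list of Trithorax genes and H3K27 demethylases also includes Ctcf, which is neither. It had 10 of 13 genes with an SCI peak and 11 with a sham peak, 76.9 and 84.6%, beside 58.5 and 81.4% matched on length. A peak in SCI alone was found at 0 of the 13, beside 5.29% of length-matched genes. Ash1l, a histone methyltransferase, had 5 SCI and 9 sham peaks, the highest at 20.5 (top 3.30%) in SCI and 34.2 (top 1.71%) in sham. Dpy30 (14.3) and Kmt2b (10.2) followed in SCI, and Rbbp5 (22.5, none in SCI) and Ctcf (11.99) in sham. Ctcf, which insulates parts of the Hox clusters, had 4 SCI and 1 sham peaks.

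Of 21 upstream regulators of Hox genes, 9 had an SCI peak and 13 a sham peak, 42.9 and 61.9%, beside 41.8 and 66.4% matched on length. Gbx2, a gene of the hindbrain boundary, had a peak in SCI alone (10.9), 3513.5 bp away. That was 1 of 21 genes or 4.76%, beside 6.83% of length-matched genes. The retinoic acid receptor genes Rara (13.8) and Rarg (10.6) had the other highest SCI peaks. Gdf11, a signal that starts the trunk-to-tail transition, had no SCI peak and 6 sham peaks, the highest of these at 41.6 (top 0.775%). Fgfr1 (24.2) and Aldh1a2, which makes retinoic acid (20.5), followed in sham. Of the Cdx genes, Cdx1 had 2 SCI peaks and 1 sham peak, Cdx4 2 sham peaks alone, and Cdx2 none.

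Of 61 other developmental homeobox genes, 22 had an SCI peak and 32 a sham peak, 36.1 and 52.5%, beside 33.0 and 57.1% matched on length. The Hox shares were 33.3% in SCI and 46.2% in sham. Peaks in SCI alone were found at 8 of them (13.1%, beside 6.51% of all and 8.06% of length-matched genes), among them Tlx3 (19.8), Lhx1 (8.37), Lhx3 (5.93), Barhl1 (8.76), Dlx2 (7), En2 (10.8) and Dlx5 (5.39). The highest SCI peaks were at Lhx4 (31.4, top 0.615%, in both lists), Tlx3 and Dbx2 (15.5), and high sham peaks lay at Evx1 (31.4) and Lhx4 (28.9).

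**Figure D5:**
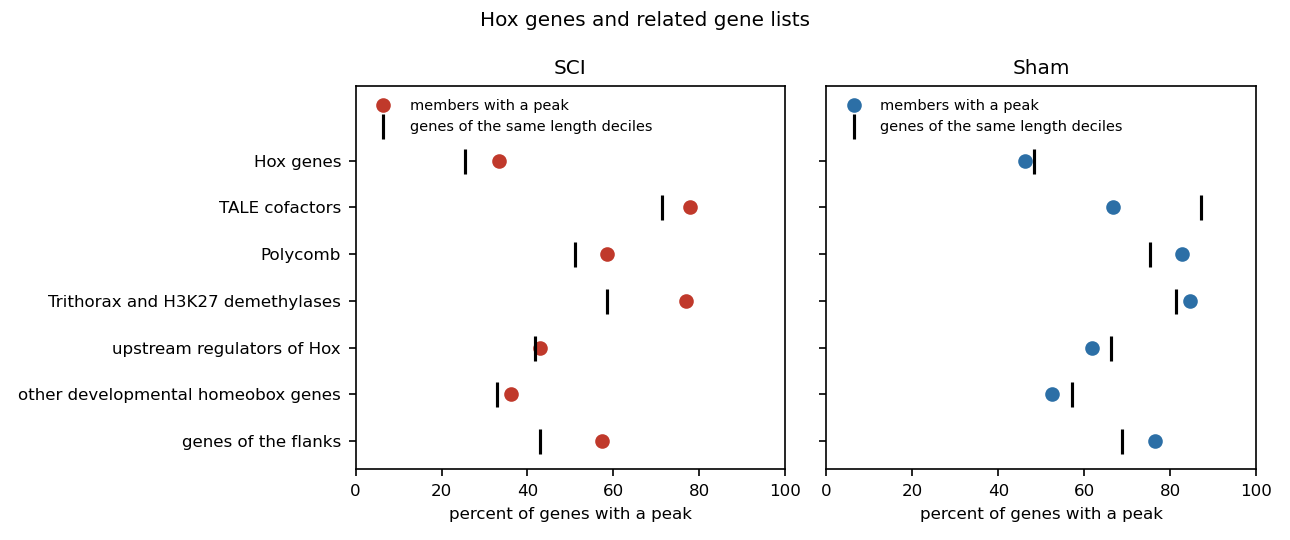
Percent of the genes of each list with a peak inside or within 5 kb (circles) and the percent among genes of the same length deciles (black bars), SCI left and sham right. The Hox genes lie at 33.3% in SCI and 46.2% in sham, beside 25.4% and 48.4% matched on length.

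Of the 47 protein-coding genes of the flanks, 27 had an SCI peak and 36 a sham peak, 57.4 and 76.6%, beside 42.9 and 68.9% matched on length. The Hox genes between them had 33.3 and 46.2%, beside 25.4 and 48.4% matched on length. Because the matched shares differ, the raw shares of these lists cannot be compared directly. Of the 47 genes, 3 had a peak in SCI alone, beside 6.51% of all protein-coding genes. They were Hnrnpa1 (5), Nckap1l (5.77) and Lnpk (5.86), all of low score. After Skap1 and Calcoco2 the highest SCI peak lay in Snf8 (15.1), and after Skap1 the highest sham peaks lay in Atf7 (36.0) and Sp1 (33.9).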

How the data were processed

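Of the 4 samples, the SCI and sham STAT3 ChIP-seq peak lists were used, and the 2 input samples were not. Bowtie2 and the build mm10 are named per the submitters' processing notes, with peak caller, control and cutoff not given in the sources used here. Per the layout, the authors' deposited lists give positions, printed here 1-based, a score (5 or more), and a −log10 value placed where the layout has a q-value, 3.22 to 4.36 in SCI and 3.27 to 4.05 in sham. No read counts are listed, so depth is unknown and only counting error of peaks could be given. In 33.1% of SCI and 22.9% of sham peaks the score plus 1, divided by 2 and squared, was a whole number (tolerance 0.0001), as in 1 of 11 SCI and 3 of 20 sham peaks of the clusters.

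Autosomal (1 to 19), X and Y peaks were placed by their centres against the RefSeq genes of GRCm38.p6, whose primary chromosomes have mm10 coordinates; the gene table has no strand and no exons. A gene had a peak when a centre lay inside it or within 5 kb. The count expected from even placement between the first and last peak of a chromosome, which shuffling within the chromosome gives on average, was computed directly. Windows of a cluster's length were tiled over the autosomes, and gene-dense ones had at least 80% of the cluster's protein-coding genes. Length-matched shares came from deciles of gene length, intervals are 95% exact Poisson or exact binomial (Clopper-Pearson). No test between conditions was possible with 1 library each. The text names every Hox gene with a peak, every cluster peak, the highest peak of each list in each flank, and, of each related list, the members that SCI alone reached and up to 3 per condition by rank; some of these genes are not reported here, though the counts include them. The members and lists were chosen with earlier results of these data known. Alternatives changed the peaks kept, the gene window, the cluster bounds, the flank length and the overlap rule. The counting was tested on simulated data. The tools were pandas 2.3.3, numpy 2.4.6 and scipy 1.17.1 under Python 3.11.15, with matplotlib 3.10.9 for plots.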

Additional observations from a re-analysis of the deposited data

How the results depend on the processing

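No paired analysis was possible because each condition had 1 library. Cutting each list to scores at or above its median left 6 SCI and 9 sham peaks inside the clusters. It left a sham peak at 10 of the 39 Hox genes and an SCI peak at 53 of the 178 genes of the related lists. No share of all protein-coding genes was computed at this cut, so no difference can be read from these gene counts. Cutting the sham list to the length of the SCI list left 7 sham peaks inside, 7 Hox genes with a sham peak and 1.82 times the expected number of sham peaks in the flanks. At that length 44.9% of all protein-coding genes had a sham peak. With the flanks as the source of the expected count, the clusters held 1.04 times the expected number in SCI and 0.689 times in sham. Counting peaks inside genes only gave 4 Hox genes in SCI and 9 in sham, where 33.4% and 51% of all protein-coding genes had a peak. A window of 50 kb gave 35 in SCI and 39 in sham, and 163 genes of the related lists in SCI, where 84.2% and 95.6% of all protein-coding genes had a peak. With centres within 1000 bp taken as shared, 5 SCI peaks of the clusters were shared. Apart from the SCI value of 1.04, which stayed within its interval, these were 14 of 64 settings of the values that answer a comparison; in the other 50 the value stayed within 1.5 times the main count or within its counting interval. Of 88 values for single clusters and flanks 16 moved further. None of these values has a test, so no call could be gained or lost. The cause of the changes was not tested. Depth is unknown, and counts of 1 to 8 peaks per cluster could show large differences only.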
